A study of Mus musculus with 19 samples.

Results

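The lysosome degrades what microglia take up, and the transcripts described here are those of 51 genes that build it. They are the genes of 11 glycosidases, 5 sulfatases, 5 enzymes and activators of sphingolipid breakdown, 7 other hydrolases, 7 lysosomal membrane proteins and 16 subunits or accessory proteins of the vacuolar proton pump (V-ATPase). They were taken by gene name from a list drawn up with earlier results of these data known, and all 51 were found among the 23951 genes of each of the 2 expression tables. Of them, 51 passed the minimum mean of 1 FPKM (a transcript level scaled by transcript length and by the fragments mapped in its library) at 4.5 months and 49 at 3 months, where Acp5 and Atp6v0d2 lay under it.

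RNA came from hippocampal microglia of mice, sorted on CD11b and CD45, in 15 libraries that form 5 groups of 3. All animals, controls included, carried Cx3cr1CreER+/-, a tamoxifen-inducible Cre recombinase under the control of the Cx3cr1 gene, and received tamoxifen at 50 mg/kg on 5 days. Cx3cr1 is active in microglia and also in other macrophages and in monocytes. The 4.5-month groups were CK-p25 PU.1 cKO (CK-p25 with PU.1 fl/fl alleles), CK-p25 (PU.1 not floxed) and their CK control littermates, given tamoxifen when p25 was induced and taken 6 weeks later. In CK-p25 mice, as background, p25, an activator of the kinase Cdk5, is made in forebrain neurons and not in the microglia that were sorted. The 3-month groups were libraries labelled PU.1 cKO (PU.1 fl/fl) and libraries labelled control, taken 1 week after tamoxifen, whose labels name neither CK nor p25. A further 4 chromatin immunoprecipitation samples are not analysed here. Whether the libraries of 1 group derive from different animals is not in the labels, and p-values therefore reflect the variation among these libraries, part of which may be technical.

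A lysosome works at acid pH. The V-ATPase uses its cytosolic V1 part to split ATP and its membrane V0 part to move protons, and the hydrolases inside strip sugars, sulfate, lipids, peptides and phosphate from their substrates in a set order. Loss of any of many of these hydrolases causes a lysosomal storage disease, often with damage to the brain. Many lysosomal genes carry an E-box, a short palindrome bound by TFEB, TFE3 and MITF, near their start site. PU.1, encoded by Spi1, is a transcription factor of myeloid cells that binds a purine-rich box.

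Spi1 measured 165, 152 and 224 FPKM across CK-p25 PU.1 cKO libraries, 251, 208 and 298 FPKM in CK-p25 libraries and 256, 229.7 and 251 FPKM in CK libraries. The CK-p25 PU.1 cKO and CK-p25 groups overlapped (log2 difference -0.49 ± 0.17, limma adjusted p = 0.745), and a value per gene also includes any Spi1 transcript that remains after the floxed exons are removed. At 3 months Spi1 measured 409, 338 and 337 FPKM in the PU.1 cKO-labelled libraries and 261, 105 and 248 FPKM in those labelled control. Each library labelled PU.1 cKO was thus above each labelled control, against what the labels say, although the difference of 0.92 ± 0.35 did not pass (adjusted p = 0.0853). The labels of these 6 samples also contradict each other. Their titles, source names and genotypes give the groups used here, while the table columns that their descriptions name read the other way round, with PU1 in the columns of the samples titled as controls, so every 3-month difference below would change sign under the other reading.

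The 7 microglia markers Cx3cr1, P2ry12, Csf1r, Aif1, Itgam, Ptprc and Tmem119 were present in every group. Their summed level ran from 5954 to 7214 FPKM in the CK-p25 PU.1 cKO group, from 6006 to 7253 FPKM in CK-p25 and from 13043 to 14033 FPKM in CK. At 3 months it ran from 14856 to 17264 FPKM over the libraries labelled PU.1 cKO and from 3844 to 6652 FPKM in those labelled control. Among markers of other cells, 6 astrocyte genes summed to 89.98 to 185 FPKM across CK-p25 PU.1 cKO libraries, 84.9 to 298 FPKM in CK-p25 and 47.2 to 66.1 FPKM in CK, and 5 neutrophil genes to 819 FPKM in CK-p25 replicate 2. In the library labelled control replicate 1 at 3 months the neutrophil genes summed to 14674 FPKM and 5 monocyte genes to 951 FPKM, and 6 border macrophage genes summed to 261 to 335 FPKM over the libraries labelled PU.1 cKO and 474 to 1528 FPKM in those labelled control. At 3 months the monocyte sum was 7.07 to 39.6 FPKM in libraries labelled PU.1 cKO and 48.7 to 951 FPKM in those labelled control, the lymphocyte sum 50.2 to 67.6 and 12.5 to 17.3 FPKM in the same order, the astrocyte sum 63.1 to 71.4 and 15.4 to 31.2 FPKM, and the endothelium sum 17.0 to 19.99 and 6.10 to 16.4 FPKM. The neutrophil sums of the other 5 libraries overlapped between the groups. At 4.5 months the monocyte sum was 35.1 to 56.1 FPKM in CK-p25 PU.1 cKO, 17.4 to 50.5 FPKM in CK-p25 and 3.87 to 17.9 FPKM in CK, and the lymphocyte sum 3.89 to 28.0 FPKM in CK-p25 PU.1 cKO, 17.8 to 21.3 FPKM in CK-p25 and 27.4 to 32.4 FPKM in CK. CK-p25 replicate 3 carries another prefix in its sequence-file label than the other 8 libraries of its table. Read depth is unknown, since FPKM values are not counts. Summed FPKM per library, which is not a depth, differed between groups at 4.5 months. It ran from 545930 to 601177 in CK-p25 PU.1 cKO, from 573405 to 650063 in CK-p25 and from 475007 to 500482 in CK. The CK sums thus lay below those of both p25 groups without overlap, and counts with library totals set equal are given below. At 3 months the sums overlapped, at 511196 to 578197 in libraries labelled PU.1 cKO and 449784 to 622613 in those labelled control.

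E-box letters were searched in the 250 bases upstream of the start site, in RefSeq promoter sequences of GRCm38.p6, a later build than the mm9 of the expression tables. An entry was found for 44 of the 51 genes, the others being Asah1, Galns, Atp6v0d2, Atp6v1b2, Atp6v1c1, Atp6v1g1 and Atp6v1h. The letters TCACGTG, on either strand, were present upstream of 13 of the 44 genes (29.5%) and upstream of 968 of 27025 genes in the promoter table (3.58%). The shorter CACGTG, which every TCACGTG contains, was present in the same number of lysosomal genes and in 6.86% of the 27025. The 27025 were not limited to genes expressed in these libraries, so the sets are unlike and the shares were not tested. A match is a description of the letters, not a bound site. The sequences of 8 of the 13 genes are shown, as the largest rise among these 13 on the log2(FPKM + 1) scale, further rises in the classes described below, and the 3 falls among the genes with the motif. They read 5′ to 3′ on the gene's own strand, and capitals mark TCACGTG or its reverse complement. Where TCACGTGA is printed, both are present and overlap. In Gla, shown over the whole 250 bases, the capitals nearer the start site mark the reverse complement of GAGGAAG, the core of a PU.1 box.
Gla: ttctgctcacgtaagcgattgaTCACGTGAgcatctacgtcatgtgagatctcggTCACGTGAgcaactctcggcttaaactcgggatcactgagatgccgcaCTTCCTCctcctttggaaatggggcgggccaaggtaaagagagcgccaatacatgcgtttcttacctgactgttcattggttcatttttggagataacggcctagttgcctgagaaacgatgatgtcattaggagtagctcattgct
Glb1: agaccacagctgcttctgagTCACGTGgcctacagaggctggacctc
Lamp1: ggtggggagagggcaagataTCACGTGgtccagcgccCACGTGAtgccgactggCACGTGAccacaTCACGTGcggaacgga
Mcoln1: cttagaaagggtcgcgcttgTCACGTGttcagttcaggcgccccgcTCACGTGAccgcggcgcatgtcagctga
Atp6v1a: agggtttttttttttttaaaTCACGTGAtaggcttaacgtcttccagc
Cd164: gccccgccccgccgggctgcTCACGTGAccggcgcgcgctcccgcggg
Sgsh: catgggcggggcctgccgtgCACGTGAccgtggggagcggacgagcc
Lgmn: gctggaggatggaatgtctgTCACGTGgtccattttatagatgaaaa

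These stretches lie at chrX:134601006-134601255 (Gla, minus strand), chr9:114401009-114401055 (Glb1, plus strand), chr8:13159079-13159160 (Lamp1, plus strand), chr8:3500427-3500500 (Mcoln1, plus strand), chr16:44139364-44139411 (Atp6v1a, minus strand), chr10:41519392-41519439 (Cd164, plus strand), chr11:119355513-119355559 (Sgsh, minus strand) and chr12:102439116-102439162 (Lgmn, minus strand), all upstream of the annotated start. Lamp1 and Gla each held 4 matches counted over both strands. In Gla each TCACGTGA was counted once on each strand, so its matches overlap in pairs, while those of Lamp1 lay apart. Those of Lamp1 began 62 bases before the start site and ended 10 bases before it, while those of Gla lay from 228 to 188 bases before it. The PU.1 box core GAGGAAG, on either strand, was upstream of 5 of the 44 genes, Gla, Gm2a, Man2b1, Laptm5 and Atp6v1d, a share of 11.4% beside 12% of the 27025 genes with a promoter entry.

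**Figure D1:**
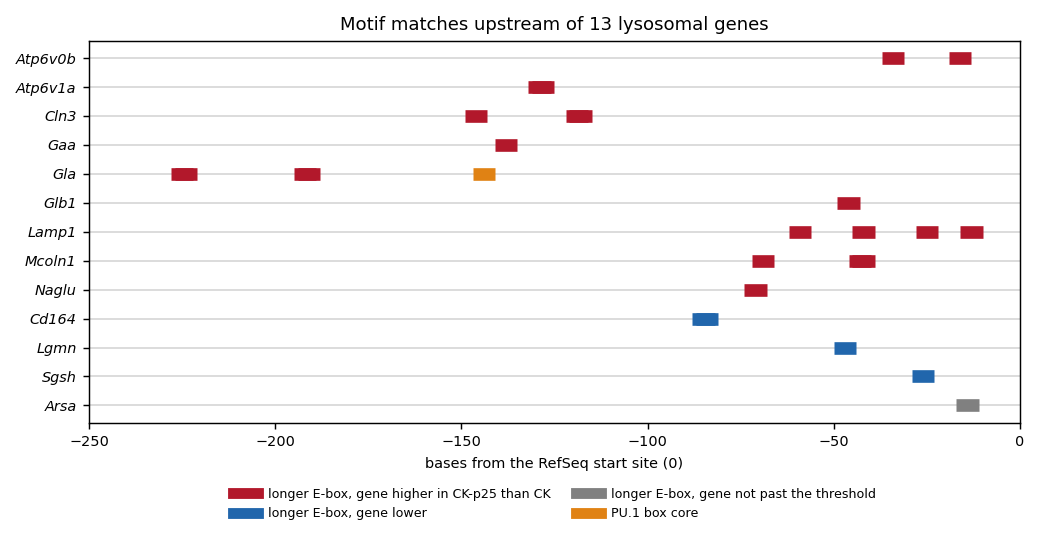
Position of motif matches in the 250 bases upstream of the RefSeq start site (horizontal axis, bases; 0 is the start site) for the 13 lysosomal genes with TCACGTG on either strand. Blocks are coloured by the comparison of CK-p25 with CK, in which 9 of the 13 genes were higher, 3 were lower and 1 did not pass the threshold, and the orange block in Gla is a PU.1 box core.

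In CK-p25 microglia most lysosomal genes were expressed at a higher level than in CK microglia. Of the 51 genes 36 rose, 4 fell and 11 did not pass the threshold (limma on log2(FPKM + 1), Benjamini-Hochberg adjusted p under 0.05 over all 10894 genes tested), where 17.6% of all genes rose and 13.7% fell. The 36 include Acp5 and Atp6v0d2, at means of 0.34 and 0.08 FPKM in CK. These genes reached the minimum level only through the p25 groups, so a rise over CK was the only call open to them. The median log2 difference of the 51 genes was 0.68, and that of all genes tested was -0.00025. The libraries of the groups did not overlap for 43 of the 51 genes (84.3%), beside 46.5% of all genes. In bulk samples fewer cells of a type and less RNA per cell cannot be told apart. Without CK-p25 replicate 3, the library of the other sequence-file prefix, 35 genes rose and 4 fell. Over all genes 2360 then rose and 2162 fell, beside 1922 and 1490 with every library.

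In CK-p25 PU.1 cKO microglia, set against the same CK libraries, 30 of the 51 genes rose, 5 fell and 16 did not pass, where 17.8% of all genes rose and 13.3% fell. The median difference was 0.48, against -0.00097 over all genes. The libraries did not overlap for 41 genes (80.4%), beside 58.5% of all genes. The 30 risen genes again include Acp5 and Atp6v0d2, which reached the minimum level only through the p25 groups. Since both comparisons use the same CK libraries, their values are given side by side below and their likeness is no separate result. Counts of each role class below stand beside the shares of all genes given here for each comparison. In both, the microglia marker sum of the p25 groups lay below that of CK and the astrocyte marker sum above it. The monocyte marker sum lay above that of CK in CK-p25 PU.1 cKO, and the lymphocyte marker sum below it in CK-p25, without overlap. The part of these markers in the lysosomal differences was not tested.

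The split between rises and falls moved with the scaling of the libraries. After quantile normalization 25 genes were higher and 8 lower in CK-p25 PU.1 cKO, and 28 higher and 6 lower in CK-p25, than in CK. All genes then split into 1702 higher and 2003 lower in CK-p25 PU.1 cKO and 1634 and 1947 in CK-p25, beside 1937 and 1447, and 1922 and 1490, as deposited. With library totals set equal over genes whose zeros were not uneven between groups, an alternative chosen after seeing the data, 23 genes were higher and 8 lower in CK-p25 PU.1 cKO and 28 and 8 in CK-p25, while all genes split into 1269 higher and 3657 lower, and 1082 and 4229. Quantile normalization ended the rises of Ppt1, Tpp1, Atp6ap1, Lamp2 and Man2b1 in CK-p25 PU.1 cKO and those of Acp5, Man2b1, Lamp2, Scarb2, Atp6v0b, Atp6v1d, Atp6v1e1 and Atp6ap1 in CK-p25. Equal totals ended the rises of Idua, Man2b1, Tpp1, Lamp2, Cln3, Mcoln1 and Atp6ap1 in CK-p25 PU.1 cKO, and in CK-p25 those ended by quantile normalization other than Acp5, and that of Atp6v0d1.

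**Figure D2:**
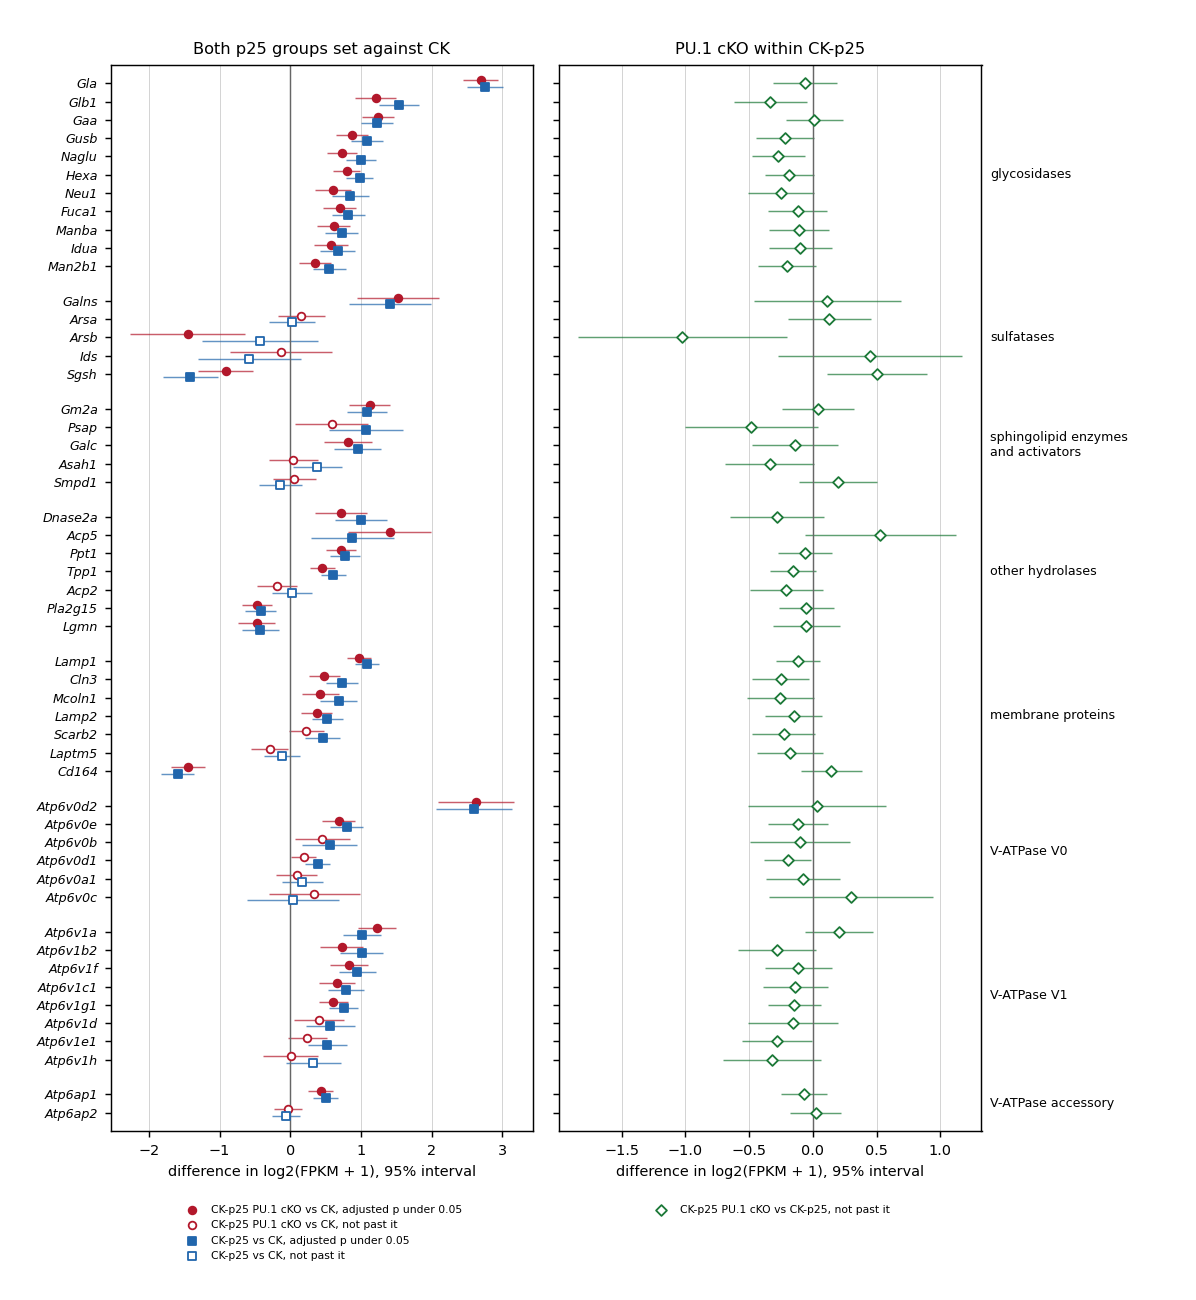
Difference in log2(FPKM + 1) of each of the 51 lysosomal genes with its 95% interval, by role class; filled symbols passed an adjusted p of 0.05. On the left, CK-p25 PU.1 cKO (circles) and CK-p25 (squares) are set against CK and most symbols lie right of 0, with 30 and 36 genes past the threshold on that side; after quantile normalization Man2b1 and Lamp2 of the circles moved to -0.077 and -0.025 and did not pass. On the right, CK-p25 PU.1 cKO is set against CK-p25 and no symbol is filled.

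All 11 glycosidase genes rose both in CK-p25 PU.1 cKO and in CK-p25 relative to CK, with the exception that Man2b1 turned to -0.077 in CK-p25 PU.1 cKO after quantile normalization, where it did not pass. Gla encodes alpha-galactosidase A, which removes terminal galactose from glycolipids and is lost in Fabry disease. Gla measured 23.1, 19.1 and 18.9 FPKM in the CK-p25 PU.1 cKO group, 21.1, 23.1 and 19.6 FPKM in CK-p25 libraries and 2.09, 2.25 and 2.54 FPKM in CK libraries. Every library with p25 was above every CK library by a wide gap. The differences from CK were 2.69 ± 0.11 (adjusted p = 3.37e-06) in CK-p25 PU.1 cKO and 2.76 ± 0.11 (adjusted p = 2.93e-06) in CK-p25 (log2 ± SE, limma). On this scale they were the largest of the 51 genes, while with a pseudocount of 0.1 Atp6v0d2 was ahead, at 5.04 in CK-p25 PU.1 cKO and 5.02 in CK-p25, against 3.09 and 3.16 for Gla.

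Glb1, the beta-galactosidase of ganglioside and keratan sulfate breakdown, measured 123, 109 and 107 FPKM across CK-p25 PU.1 cKO libraries, 155, 144 and 129 FPKM in CK-p25 and 56.4, 41.9 and 47.2 FPKM in CK. The 3 groups did not overlap, and the CK-p25 PU.1 cKO libraries lay between the other two groups. The differences from CK were 1.21 ± 0.12 (adjusted p = 0.000271) in CK-p25 PU.1 cKO and 1.54 ± 0.12 (adjusted p = 8.6e-05) in CK-p25. Gusb, the beta-glucuronidase gene, measured 321, 278 and 257 FPKM in the CK-p25 PU.1 cKO group, 329.9, 336 and 324 FPKM in CK-p25 and 169, 151 and 147 FPKM in CK, with differences from CK of 0.87 ± 0.10 and 1.09 ± 0.10. Idua, the iduronidase that acts on heparan and dermatan sulfate, measured 35.6, 33.8 and 45.1 FPKM across CK-p25 PU.1 cKO libraries, 41.9, 39.9 and 40.0 FPKM in CK-p25 and 24.6, 25.5 and 25 FPKM in CK. Its differences were 0.58 ± 0.11 in CK-p25 PU.1 cKO and 0.68 ± 0.11 in CK-p25.

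The rises of the remaining glycosidases were all smaller than that of Gla. Gaa, which releases glucose from glycogen and is lost in Pompe disease, differed from CK by 1.24 ± 0.10 in CK-p25 PU.1 cKO and by 1.23 ± 0.10 in CK-p25. Hexa, the alpha chain of beta-hexosaminidase that is lost in Tay-Sachs disease, had the highest level of the class, at 1327 ± 24.8 FPKM in the CK-p25 PU.1 cKO group, 1511 ± 121 FPKM in CK-p25 and 764 ± 22.9 FPKM in CK (mean ± SD, n = 3 each), with differences of 0.80 ± 0.08 and 0.98 ± 0.08. Naglu, an exoglycosidase of heparan sulfate, differed by 0.73 ± 0.09 and 1.00 ± 0.09 in the same order of groups. For the sialidase gene Neu1 the differences were 0.60 ± 0.11 in CK-p25 PU.1 cKO and 0.85 ± 0.11 in CK-p25, for the fucosidase gene Fuca1 0.70 ± 0.10 and 0.82 ± 0.10, and for the beta-mannosidase gene Manba 0.62 ± 0.10 and 0.73 ± 0.10. The smallest rise was that of the alpha-mannosidase gene Man2b1, at 0.35 ± 0.10 (adjusted p = 0.0301) in CK-p25 PU.1 cKO and 0.55 ± 0.10 (adjusted p = 0.00417) in CK-p25. The Man2b1 call in CK-p25 PU.1 cKO was lost without any 1 of CK replicates 1, 2 and 3 or CK-p25 PU.1 cKO replicates 1, 2 and 3 (adjusted p from 0.0515 to 0.0906, differences from 0.32 to 0.39).

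**Figure D3:**
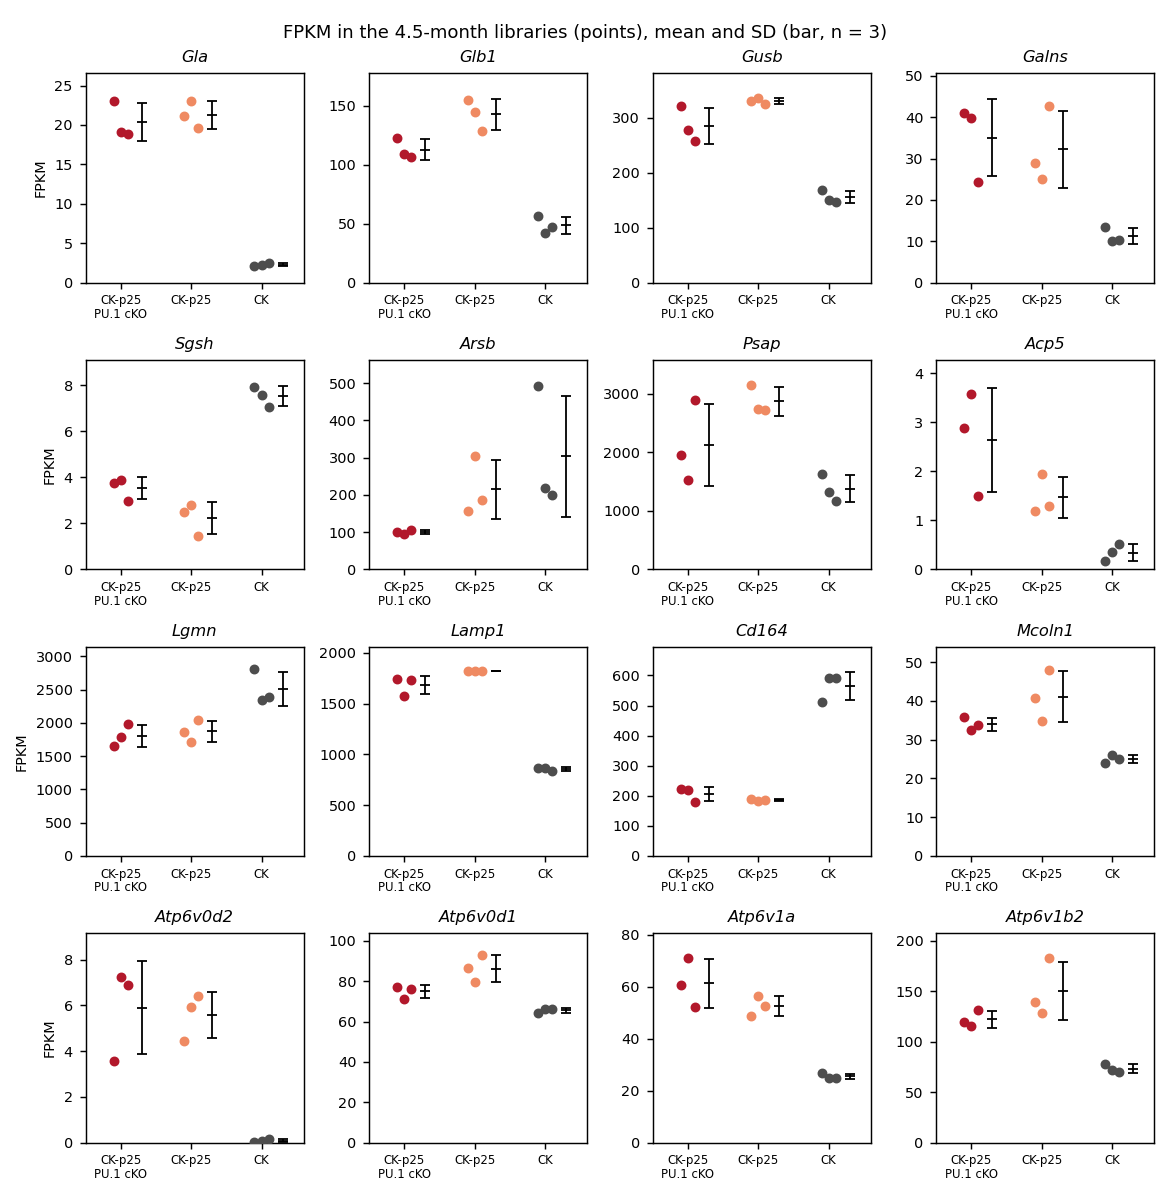
FPKM of 16 lysosomal genes in each 4.5-month library (vertical axes, linear, from 0; points) with the mean and SD of 3 libraries (bars), for CK-p25 PU.1 cKO, CK-p25 and CK from left to right. Gla lies at 18.9 to 23.1 FPKM in the libraries with p25 and at 2.09 to 2.54 FPKM in CK, while Cd164, Sgsh and Lgmn are highest in CK.

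The sulfatases, which remove sulfate from glycosaminoglycans and from sulfatide, did not move together. Galns, which acts on keratan and chondroitin sulfate, measured 40.9, 39.8 and 24.3 FPKM across CK-p25 PU.1 cKO libraries, 29.0, 25 and 42.7 FPKM in CK-p25 and 13.5, 10.1 and 10.2 FPKM in CK. It rose in both p25 groups, by 1.53 ± 0.25 (adjusted p = 0.00256) and 1.41 ± 0.25 (adjusted p = 0.00374). Sgsh, the heparan sulfamidase lost in a form of Sanfilippo disease, fell, with 3.75, 3.87 and 2.98 FPKM in the CK-p25 PU.1 cKO group, 2.48, 2.79 and 1.47 FPKM in CK-p25 and 7.91, 7.59 and 7.05 FPKM in CK. Its differences from CK were -0.91 ± 0.17 (adjusted p = 0.00468) and -1.41 ± 0.17 (adjusted p = 0.000604), and no 2 of the groups overlapped.

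Arsb, which acts on dermatan sulfate, measured 101, 95.7 and 106 FPKM across CK-p25 PU.1 cKO libraries, 156, 305 and 185 FPKM in CK-p25 and 492, 218 and 200.3 FPKM in CK. CK replicate 1 stood far above the other CK libraries (its border macrophage marker sum was 6.49 FPKM, against 260.0 and 310.3 FPKM in the others, and their part in the value was not tested), and the CK-p25 and CK groups overlapped. Arsb fell in CK-p25 PU.1 cKO, with a difference of -1.45 ± 0.36 (adjusted p = 0.0157). The call was lost when replicate 2 of that group was left out (-1.42 with an adjusted p of 0.0524). The difference was -0.43 ± 0.36 in CK-p25 (adjusted p = 0.396). Ids, the iduronate sulfatase gene of Hunter disease, measured 27.7, 37.2 and 35.0 FPKM in the CK-p25 PU.1 cKO group, 30.8, 34.0 and 12.9 FPKM in CK-p25 and 34.5, 38.7 and 35.6 FPKM in CK, and the low CK-p25 value is that of replicate 3. Neither Ids difference passed, at -0.13 (95% interval -0.85 to 0.59) and -0.58 (-1.30 to 0.15). Arsa, which acts on sulfatide, was at 0.16 (-0.17 to 0.49) in CK-p25 PU.1 cKO and 0.03 (-0.30 to 0.36) in CK-p25.

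Among genes of sphingolipid breakdown, Gm2a, whose product presents ganglioside to beta-hexosaminidase, measured 209, 184 and 183 FPKM across CK-p25 PU.1 cKO libraries, 227, 169 and 169 FPKM in CK-p25 and 88.5, 86.1 and 87.9 FPKM in CK. The CK libraries lay within a narrow range below the rest, and the differences were 1.12 ± 0.12 and 1.08 ± 0.12. Galc, the galactosylceramidase lost in Krabbe disease, measured 29.2, 30.1 and 27.5 FPKM in the CK-p25 PU.1 cKO group, 33.4, 38.7 and 25.2 FPKM in CK-p25 and 15.9, 17.3 and 14.8 FPKM in CK, with differences of 0.82 ± 0.15 and 0.96 ± 0.15. Psap, the precursor of the saposins and one of the most abundant transcripts of the set, measured 1953, 1528 and 2890.4 FPKM across CK-p25 PU.1 cKO libraries, 3157, 2740.4 and 2722 FPKM in CK-p25 and 1631, 1329 and 1171 FPKM in CK. Psap rose in CK-p25, by 1.07 ± 0.23 (adjusted p = 0.00837), while CK-p25 PU.1 cKO replicate 2 lay inside the CK range and the difference of 0.59 ± 0.23 did not pass (adjusted p = 0.0836). The acid ceramidase gene Asah1, at 0.05 (-0.30 to 0.39) and 0.39 (0.04 to 0.73), and the acid sphingomyelinase gene Smpd1, at 0.06 (-0.25 to 0.36) and -0.14 (-0.44 to 0.17), did not pass in either group.

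Of the 7 other hydrolases 4 rose and 2 fell in each p25 group. Acp5, the tartrate-resistant acid phosphatase known from osteoclasts, was near the lower end of the scale, at 2.88, 3.57 and 1.49 FPKM in the CK-p25 PU.1 cKO group, 1.18, 1.94 and 1.28 FPKM in CK-p25 and 0.161, 0.346 and 0.513 FPKM in CK. Its difference was 1.41 ± 0.26 (adjusted p = 0.00420) in CK-p25 PU.1 cKO and 0.88 ± 0.26 (adjusted p = 0.0327) in CK-p25, sizes that a pseudocount of 1 shrinks at so low a level. Acp5 passed the minimum level through the p25 groups alone, so a rise over CK was the only call open to it. In CK-p25 the Acp5 call was lost without any 1 of CK replicates 1, 2 and 3, CK-p25 replicates 1 and 2 and replicate 1 of CK-p25 PU.1 cKO (adjusted p from 0.0504 to 0.0989). Dnase2a, the acid nuclease gene, measured 87.0, 72.1 and 109.7 FPKM across CK-p25 PU.1 cKO libraries, 125, 101 and 99.1 FPKM in CK-p25 and 49.9, 52.2 and 58.3 FPKM in CK, and rose by 0.72 ± 0.16 and 1.00 ± 0.16. The thioesterase gene Ppt1 rose by 0.72 ± 0.09 in CK-p25 PU.1 cKO and 0.78 ± 0.09 in CK-p25, and the protease gene Tpp1 by 0.45 ± 0.08 and 0.61 ± 0.08. Both are genes of neuronal ceroid lipofuscinosis.

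Lgmn and Pla2g15 fell in both. Lgmn, which encodes the asparaginyl endopeptidase legumain, measured 1654, 1786 and 1978 FPKM in the CK-p25 PU.1 cKO group, 1858, 1721 and 2043 FPKM in CK-p25 and 2805, 2346 and 2386 FPKM in CK, with differences of -0.48 ± 0.11 (adjusted p = 0.0146) and -0.42 ± 0.11 (adjusted p = 0.0247). The Lgmn call in CK-p25 PU.1 cKO was lost without replicate 1 of either group (adjusted p 0.0567 and 0.0579) and without a minimum level (0.123). In CK-p25 it was lost without any 1 of CK replicates 1 and 3 and CK-p25 replicates 1 and 2 (adjusted p from 0.0552 to 0.0896) and without a minimum level (0.168). Pla2g15, the lysosomal phospholipase gene, measured 311, 293 and 316 FPKM across CK-p25 PU.1 cKO libraries, 354, 300.1 and 302 FPKM in CK-p25 and 459, 417 and 403 FPKM in CK, and differed by -0.47 ± 0.09 and -0.42 ± 0.09. Acp2, the lysosomal acid phosphatase gene, measured 73.0, 63.6 and 75.0 FPKM in the CK-p25 PU.1 cKO group, 78.8, 70.6 and 96.9 FPKM in CK-p25 and 76.3, 84.1 and 80.4 FPKM in CK and did not pass, at -0.19 (-0.47 to 0.10) and 0.02 (-0.26 to 0.31).

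The genes of the lysosomal membrane split between rises and a fall. Lamp1, a main glycoprotein of the membrane, measured 1745, 1579 and 1729 FPKM across CK-p25 PU.1 cKO libraries, 1823, 1819 and 1824 FPKM in CK-p25 and 865, 865 and 835 FPKM in CK. No 2 of the 3 groups overlapped, and the rises over CK were 0.98 ± 0.07 (adjusted p = 6.57e-05) and 1.09 ± 0.07 (adjusted p = 3.99e-05). Its relative Lamp2 rose by 0.38 ± 0.10 (adjusted p = 0.0191) in CK-p25 PU.1 cKO, a value that turned to -0.025 after quantile normalization and did not pass without CK replicate 2 or 3 or without replicate 1 or 3 of CK-p25 PU.1 cKO (adjusted p from 0.0564 to 0.0763), and by 0.53 ± 0.10 in CK-p25. Cd164, the sialomucin endolyn, fell, with 221, 219 and 180.2 FPKM in the CK-p25 PU.1 cKO group, 190.3, 181 and 187 FPKM in CK-p25 and 511, 591 and 592 FPKM in CK. All libraries with p25 lay far below all CK libraries, with differences of -1.45 ± 0.10 (adjusted p = 4.97e-05) and -1.59 ± 0.10 (adjusted p = 3.33e-05).

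Cln3, the membrane protein lost in juvenile neuronal ceroid lipofuscinosis, measured 45.9, 40.4 and 43.6 FPKM across CK-p25 PU.1 cKO libraries, 54.0, 46.2 and 55.3 FPKM in CK-p25 and 28.4, 31.5 and 32.2 FPKM in CK. It rose by 0.48 ± 0.10 and 0.73 ± 0.10. Mcoln1, the mucolipin cation channel that releases lysosomal calcium, measured 35.8, 32.5 and 33.7 FPKM in the CK-p25 PU.1 cKO group, 40.7, 34.7 and 47.9 FPKM in CK-p25 and 24.0, 26.0 and 25.1 FPKM in CK. The Mcoln1 rise was 0.68 ± 0.11 in CK-p25 (adjusted p = 0.00288). In CK-p25 PU.1 cKO it was 0.43 ± 0.11 (adjusted p = 0.0230), a call that was lost without any 1 of CK replicates 1, 2 and 3 or CK-p25 PU.1 cKO replicates 1, 2 and 3 (adjusted p from 0.0511 to 0.0804). Scarb2, the receptor that carries glucocerebrosidase to lysosomes, was at 0.23 ± 0.11 in CK-p25 PU.1 cKO, not past the threshold (adjusted p = 0.145), and rose by 0.46 ± 0.11 in CK-p25, where the call was lost without CK replicate 2 or 3 (adjusted p 0.0543 and 0.0551). Laptm5, a membrane protein of hematopoietic cells, was among the most abundant transcripts, at 2164 ± 77.4 FPKM across CK-p25 PU.1 cKO libraries, 2459 ± 309.7 FPKM in CK-p25 and 2653 ± 219 FPKM in CK, and did not pass, at -0.29 (-0.55 to -0.03) and -0.11 (-0.37 to 0.14).

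Of the 8 genes of the ATP-splitting V1 part of the proton pump, 5 rose in CK-p25 PU.1 cKO and 7 in CK-p25. Atp6v1a, the catalytic A subunit, measured 60.7, 70.9 and 52.1 FPKM in the CK-p25 PU.1 cKO group, 48.8, 56.6 and 52.7 FPKM in CK-p25 and 26.7, 24.9 and 24.8 FPKM in CK. Its rises were 1.22 ± 0.12 (adjusted p = 0.000182) and 1.02 ± 0.12 (adjusted p = 0.000472). The B subunit gene Atp6v1b2 measured 119, 116 and 131 FPKM across CK-p25 PU.1 cKO libraries, 139, 128 and 183 FPKM in CK-p25 and 78.2, 72.0 and 69.5 FPKM in CK, and rose by 0.73 ± 0.13 and 1.01 ± 0.13. For both subunits every library with p25 lay above every CK library. Atp6v1f measured 345, 272 and 309 FPKM in the CK-p25 PU.1 cKO group, 367, 318 and 316 FPKM in CK-p25 and 186, 158 and 174 FPKM in CK and rose by 0.83 ± 0.11 and 0.95 ± 0.11. Atp6v1c1 measured 183, 154 and 149.5 FPKM across CK-p25 PU.1 cKO libraries, 173, 162 and 200.0 FPKM in CK-p25 and 109, 99.7 and 97.9 FPKM in CK and rose by 0.66 ± 0.11 and 0.79 ± 0.11.

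Atp6v1g1, of the stalk that joins V1 to V0, rose by 0.61 ± 0.09 in CK-p25 PU.1 cKO and 0.76 ± 0.09 in CK-p25. Atp6v1e1, of the same stalk, and Atp6v1d, of the central rotor, passed in CK-p25, at 0.53 ± 0.12 and 0.57 ± 0.15, and were at 0.24 (-0.03 to 0.52) and 0.41 (0.06 to 0.76) in CK-p25 PU.1 cKO. CK-p25 replicate 3 had the highest value of its group for Atp6v1d, at 92.3 FPKM beside 61.2 and 62.0, and without it the difference was 0.38 and still passed. The Atp6v1d call was lost without any 1 of CK replicates 1, 2 and 3 (adjusted p from 0.0606 to 0.0738). Atp6v1h, a regulatory subunit, did not pass, at 0.00 (-0.38 to 0.39) and 0.33 (-0.06 to 0.71).

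Of the 6 genes of the proton-moving V0 part, 2 rose in CK-p25 PU.1 cKO and 4 in CK-p25. Atp6v0d2, the d subunit isoform known from osteoclasts, measured 3.57, 7.24 and 6.88 FPKM in the CK-p25 PU.1 cKO group and 4.45, 5.92 and 6.39 FPKM in CK-p25, while the CK libraries lay at 0.0201, 0.0865 and 0.134 FPKM, near 0. It rose by 2.63 ± 0.24 (adjusted p = 0.000132) and 2.60 ± 0.24 (adjusted p = 0.000148), sizes that depend on the pseudocount at such CK levels. Atp6v0d2 passed the minimum level through the p25 groups alone, so a rise over CK was the only call open to it. The widely expressed isoform Atp6v0d1 measured 77.3, 71.3 and 76.3 FPKM across CK-p25 PU.1 cKO libraries, 86.7, 79.5 and 92.8 FPKM in CK-p25 and 64.3, 66.2 and 66.3 FPKM in CK. It rose in CK-p25, by 0.39 ± 0.08 (adjusted p = 0.00706), and was at 0.19 ± 0.08 (adjusted p = 0.106) in CK-p25 PU.1 cKO. On the FPKM scale, which is per length, Atp6v0d2 was far below Atp6v0d1 in every library.

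Atp6v0e, a small membrane subunit, measured 338, 288 and 319 FPKM in the CK-p25 PU.1 cKO group, 374, 312 and 338 FPKM in CK-p25 and 205, 179 and 203 FPKM in CK and rose by 0.68 ± 0.10 and 0.80 ± 0.10. Atp6v0b, of the proton-carrying ring, measured 401, 328 and 371 FPKM across CK-p25 PU.1 cKO libraries, 462, 333 and 390.4 FPKM in CK-p25 and 325, 219 and 265 FPKM in CK. It rose in CK-p25, by 0.56 ± 0.17 (adjusted p = 0.0390), and was at 0.45 ± 0.17 (adjusted p = 0.0772) in CK-p25 PU.1 cKO. The CK-p25 call for Atp6v0b was lost without any 1 of CK replicates 2 and 3, CK-p25 replicates 1 and 3 and CK-p25 PU.1 cKO replicates 1, 2 and 3 (adjusted p from 0.0516 to 0.127). The ring gene Atp6v0c, at 0.34 (-0.31 to 0.98) and 0.04 (-0.61 to 0.68), and Atp6v0a1, of the proton path, at 0.09 (-0.20 to 0.38) and 0.17 (-0.12 to 0.46), did not pass. Of the accessory proteins, Atp6ap1 measured 474, 437 and 467 FPKM in the CK-p25 PU.1 cKO group, 514, 465 and 469 FPKM in CK-p25 and 355, 327 and 338 FPKM in CK. It rose by 0.43 ± 0.08 and 0.50 ± 0.08. Atp6ap2, also known as the prorenin receptor, did not pass, at -0.04 (-0.23 to 0.16) and -0.06 (-0.25 to 0.14).

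Levels ranged widely within the set. In CK-p25 PU.1 cKO and in CK-p25 5 genes averaged over 1000 FPKM, namely Psap, Laptm5, Lgmn, Lamp1 and Hexa, and in CK 3 did, Laptm5, Lgmn and Psap. The median gene of the set averaged 117 FPKM across CK-p25 PU.1 cKO libraries, 150.2 FPKM in CK-p25 and 80.3 FPKM in CK. Within groups the median coefficient of variation over 3 libraries was 7.15% in CK-p25 PU.1 cKO, 9.91% in CK-p25 and 5.97% in CK. The 51 genes together held 2.72% to 3.15% of a library's summed FPKM at 4.5 months, and their shares overlapped between the groups.

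The next comparison asked whether the lysosomal genes differ between CK-p25 PU.1 cKO and CK-p25, that is, with and without floxed PU.1 when p25 is present. None of the 51 genes passed the threshold in limma, where 0% of the 10894 genes tested did, and 7 of the 51 had an unadjusted p under 0.05. The median difference was -0.12, with 38 genes below 0 and 13 above, beside a median of 0 over all genes. The libraries did not overlap for 13 of the 51 genes (25.5%), of which 12 were lower and 1 higher in CK-p25 PU.1 cKO, where 9.38% of all genes did not overlap. The 4 genes with the smallest p were Naglu, Sgsh, Arsb and Glb1, each with an adjusted p of 0.745.

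Naglu measured 194, 171 and 175 FPKM in the CK-p25 PU.1 cKO group and 237, 203 and 212 FPKM in CK-p25, a difference of -0.27 ± 0.09 with a 95% interval from -0.48 to -0.06. For Glb1 and Arsb, with the values given above, the differences were -0.33 ± 0.12 (-0.62 to -0.05) and -1.02 ± 0.36 (-1.84 to -0.21). For all 3 the CK-p25 PU.1 cKO libraries lay below those of CK-p25, while for Sgsh they lay above, by 0.50 ± 0.17 (0.11 to 0.89). Without CK-p25 replicate 3, which held the lowest Sgsh value, that difference was 0.31. Of the 11 glycosidase genes 10 were below 0, the exception being Gaa at 0.01 ± 0.10, and none passed. For Gla the interval ran from -0.31 to 0.19, so a change by as much as its difference from CK lay outside it.

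Genes of the lysosome outside the 51 were taken as 4 lists of 86 genes in all: 27 further hydrolases and cofactors, 26 further membrane proteins and transporters, 17 further V-ATPase subunits and assembly factors, and 16 genes of the sorting of lysosomal enzymes. In CK-p25 PU.1 cKO 31 of the 78 tested were higher and 6 lower than in CK, and in CK-p25 33 were higher and 5 lower. Of all genes, 17.8% were higher and 13.3% lower in CK-p25 PU.1 cKO, and 17.6% and 13.7% in CK-p25. The counts of each list below stand beside these same shares. Against CK-p25, none of the 78 passed in CK-p25 PU.1 cKO, where 0% of all genes did.

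Of 26 further hydrolases tested, 16 rose and 2 fell in CK-p25 PU.1 cKO and 16 rose and 0 fell in CK-p25. The dipeptidyl peptidase gene Dpp7 measured 194, 176 and 152 FPKM across CK-p25 PU.1 cKO libraries, 167, 163 and 146 FPKM in CK-p25 and 35.8, 29.2 and 33.1 FPKM in CK (2.38 ± 0.12 and 2.25 ± 0.12). Pld3, a lysosomal nuclease gene of the phospholipase D family, measured 574, 508 and 525 FPKM in the CK-p25 PU.1 cKO group, 710.2, 581 and 656 FPKM in CK-p25 and 155, 138 and 141 FPKM in CK (1.88 ± 0.10 and 2.15 ± 0.10). Npc2, which carries cholesterol out of lysosomes, rose by 1.61 ± 0.09 in CK-p25, and the carboxypeptidase gene Scpep1 by 1.56 ± 0.11 in CK-p25 PU.1 cKO.

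Of 25 further membrane genes tested, 8 rose and 3 fell in CK-p25 PU.1 cKO and 7 rose and 4 fell in CK-p25. Cd63, a tetraspanin of late endosomes and lysosomes, measured 2437, 2113 and 2000.1 FPKM across CK-p25 PU.1 cKO libraries, 2342, 2056 and 2173 FPKM in CK-p25 and 403, 386 and 382 FPKM in CK (2.48 ± 0.10 and 2.48 ± 0.10). The macrophage glycoprotein gene Cd68 rose by 0.86 ± 0.11 in CK-p25 PU.1 cKO, and the metal transporter gene Slc11a1 and the calcium channel gene Tpcn2 by 1.10 ± 0.17 and 1.08 ± 0.14 in CK-p25. Mcoln3, a relative of Mcoln1, was at 3.12, 5.26 and 1.48 FPKM in the CK-p25 PU.1 cKO group and 1.80, 1.59 and 0.356 FPKM in CK-p25 and was listed at 0 in each CK library. It too passed the minimum level only through the p25 groups.

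The further V-ATPase genes differed from the V-ATPase genes of the set in their counts: of 12 tested, 0 rose and 1 fell in CK-p25 PU.1 cKO and 1 rose and 1 fell in CK-p25, a contrast that was not tested. The a subunit isoform gene Atp6v0a2 fell, with 33.7, 31.8 and 44.4 FPKM across CK-p25 PU.1 cKO libraries, 41.6, 43.7 and 51.0 FPKM in CK-p25 and 80.1, 79.1 and 72.2 FPKM in CK (-1.07 ± 0.14 and -0.76 ± 0.14). Tcirg1, the a subunit isoform of osteoclasts, measured 57.0, 42.3 and 58.5 FPKM in the CK-p25 PU.1 cKO group, 90.7, 62.6 and 88.0 FPKM in CK-p25 and 43.5, 47.4 and 49.6 FPKM in CK, and rose in CK-p25, by 0.75 ± 0.17 (adjusted p = 0.0119). Of 15 sorting genes tested, 7 rose in CK-p25 PU.1 cKO and 9 in CK-p25, and none fell. Gnptab, which adds the phosphate of the mannose tag that sends hydrolases to lysosomes, measured 28.5, 26.0 and 25.1 FPKM across CK-p25 PU.1 cKO libraries, 24.0, 23.8 and 15.2 FPKM in CK-p25 and 5.90, 6.41 and 5.84 FPKM in CK (1.97 ± 0.16 and 1.61 ± 0.16). The sorting adaptor gene Gga2 rose by 0.85 ± 0.07 and 0.82 ± 0.07, the retromer gene Vps29 by 0.70 ± 0.11 in CK-p25 PU.1 cKO and the adaptor gene Ap3s1 by 0.77 ± 0.13 in CK-p25.

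Of the 13 lysosomal genes with TCACGTG upstream, 8 rose, 3 fell and 2 did not pass in CK-p25 PU.1 cKO, and 9 rose, 3 fell and 1 did not pass in CK-p25. Over the 44 genes with a promoter entry the counts were 25, 5 and 14 in CK-p25 PU.1 cKO and 31, 4 and 9 in CK-p25. Falls with the motif were Cd164, Sgsh and Lgmn, whose letters are printed above. The genes of the factors known for that motif did not move one way. Tfe3 measured 53.5, 55.3 and 55.1 FPKM in the CK-p25 PU.1 cKO group, 56.5, 48.6 and 47.9 FPKM in CK-p25 and 68.0, 69.3 and 66.6 FPKM in CK, and differed by -0.31 ± 0.08 (adjusted p = 0.0201) and -0.41 ± 0.08 (adjusted p = 0.00599). Mitf measured 9.62, 7.32 and 8.75 FPKM across CK-p25 PU.1 cKO libraries, 12.4, 11.6 and 5.00 FPKM in CK-p25 and 4.43, 4.43 and 3.99 FPKM in CK, and differed by 0.85 ± 0.28 (adjusted p = 0.0501) and 0.93 ± 0.28 (adjusted p = 0.0367). Tfeb, at 23.6 ± 1.80 FPKM in the CK-p25 PU.1 cKO group, 22.1 ± 4.89 FPKM in CK-p25 and 25.2 ± 2.54 FPKM in CK, did not pass, at -0.09 (-0.43 to 0.25) and -0.20 (-0.54 to 0.14).

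At 3 months the libraries labelled PU.1 cKO were set against those labelled control, and the lysosomal genes moved both ways. Of the 49 genes tested 8 were higher and 4 lower, where 12.4% and 17.8% of all 10845 genes were. Counts of each role class at 3 months stand beside these same shares. After median centring 13 genes were higher and 4 lower, with 1713 and 1649 of all genes, and after quantile normalization 16 and 4, with 2086 and 1853 of all genes, beside 1344 and 1925 as deposited. The share of the 49 called in either direction, 24.5%, beside 30.1% of all genes, moved with these settings and is read as neither above nor below the background. The libraries did not overlap for 27 of the 49 genes (55.1%), beside 48.8% of all genes. The median difference was 0.08, against -0.03 over all genes. Together the 51 genes held 2.75% to 2.87% of summed FPKM in libraries labelled PU.1 cKO and 2.23% to 2.43% in those labelled control. The libraries of the groups also did not overlap in the microglia, astrocyte, endothelium, lymphocyte, border macrophage and monocyte marker sums given above, whose part in these differences was not tested. Without labelled control replicate 1, which held the highest neutrophil and monocyte marker sums, 4 genes were higher and 4 lower. The counts over all genes fell too, to 805 higher and 1279 lower, from 1344 and 1925 with every library. The calls of Cd164, Hexa, Ids and Man2b1 were lost in that fit (adjusted p 0.103, 0.0919, 0.0513 and 0.0594).

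**Figure D4:**
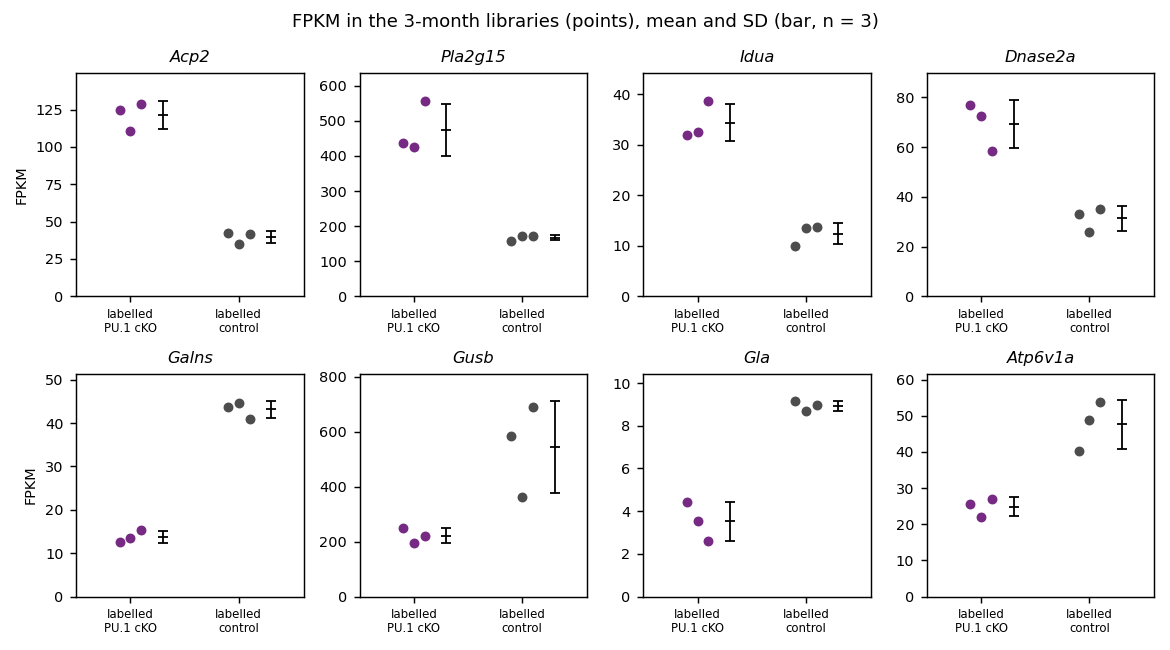
FPKM of 8 lysosomal genes in each 3-month library (vertical axes, linear, from 0; points) with the mean and SD of 3 libraries (bars), for libraries labelled PU.1 cKO on the left and labelled control on the right. Acp2 lies at 111 to 129 FPKM over the libraries labelled PU.1 cKO and at 34.9 to 42.7 FPKM in those labelled control, and Galns at 12.6 to 15.3 FPKM over the libraries labelled PU.1 cKO and 40.9 to 44.7 FPKM in those labelled control.

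The largest positive differences were those of Acp2, Pla2g15, Idua and Dnase2a, genes of hydrolases of phosphate, lipid, sugar and DNA. Acp2 measured 125, 111 and 129 FPKM in libraries labelled PU.1 cKO and 42.7, 34.9 and 41.6 FPKM in those labelled control, a difference of 1.59 ± 0.16 (adjusted p = 0.000893). Pla2g15 measured 436, 426 and 558 FPKM in libraries labelled PU.1 cKO and 158, 172 and 170.4 FPKM in those labelled control, a difference of 1.49 ± 0.18 (adjusted p = 0.00169). Dnase2a measured 76.9, 72.4 and 58.3 FPKM in libraries labelled PU.1 cKO and 33.3, 25.8 and 35.1 FPKM in those labelled control, a difference of 1.12 ± 0.19. For these 3 genes every library labelled PU.1 cKO lay above every library labelled control. Among the remaining hydrolases of that class, Lgmn at 0.32 (-0.24 to 0.88), Tpp1 at 0.45 (0.04 to 0.86) and Ppt1 at -0.34 (-0.79 to 0.12) did not pass.

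The glycosidases split. Idua measured 32.0, 32.6 and 38.8 FPKM in libraries labelled PU.1 cKO and 9.95, 13.5 and 13.7 FPKM in those labelled control, and was higher by 1.41 ± 0.19 (adjusted p = 0.00228). Man2b1 was higher by 0.92 ± 0.25 and Hexa by 0.62 ± 0.20 (adjusted p = 0.0491), and both calls were lost in several fits without a library: Man2b1 without labelled control replicate 1 or any 1 of labelled PU.1 cKO replicates 1, 2 and 3 (adjusted p from 0.0594 to 0.111), and, among other settings, without a minimum level (0.0540), and Hexa without each of those or labelled control replicate 3 (0.0919 to 0.166). Lower were Gusb and Gla. Gusb measured 249, 195 and 221 FPKM in libraries labelled PU.1 cKO and 584, 362 and 689.9 FPKM in those labelled control, a difference of -1.25 ± 0.27 (adjusted p = 0.0133) that did not pass without labelled PU.1 cKO replicate 2 or 3 (adjusted p 0.0636 and 0.0547). Gla measured 4.43, 3.54 and 2.62 FPKM in libraries labelled PU.1 cKO and 9.15, 8.67 and 8.97 FPKM in those labelled control, a difference of -1.15 ± 0.21 (adjusted p = 0.00682). The remaining 6, Gaa, Glb1, Fuca1, Manba, Naglu and Neu1, lay between -0.43 (Glb1, adjusted p = 0.0922) and 0.35 (Gaa) and did not pass.

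The sulfatase Galns had the largest fall, with 12.6, 13.5 and 15.3 FPKM in libraries labelled PU.1 cKO and 43.8, 44.7 and 40.9 FPKM in those labelled control (-1.58 ± 0.16, adjusted p = 0.000747). The values of each group lay close together, and the groups were far apart. Ids was higher, at 14.5, 17.4 and 19.3 FPKM in libraries labelled PU.1 cKO and 7.09, 9.34 and 9.71 FPKM in those labelled control (0.90 ± 0.19, adjusted p = 0.0134), a call lost without labelled PU.1 cKO replicate 2 or 3 or labelled control replicate 1 (adjusted p from 0.0513 to 0.0636). Arsa (0.60), Arsb (-0.07) and Sgsh (0.80, 95% interval 0.12 to 1.48) did not pass. None of the 5 sphingolipid genes passed, from -0.31 for Galc to 0.74 for Asah1.

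Of the 7 membrane proteins Cd164 was higher, at 429, 379 and 494 FPKM in libraries labelled PU.1 cKO and 277, 268 and 287 FPKM in those labelled control (0.64 ± 0.18, adjusted p = 0.0337). The call was lost without labelled control replicate 1 or any 1 of labelled PU.1 cKO replicates 1, 2 and 3 (adjusted p from 0.0783 to 0.148). The libraries did not overlap for 6 of the 7 genes, which were all higher in libraries labelled PU.1 cKO. Of all genes, 48.8% did not overlap in either direction. The genes other than Cd164 lay from 0.08 for Mcoln1 to 0.68 for Laptm5 (adjusted p = 0.0511) and did not pass. Of the 15 V-ATPase genes tested 1 passed (6.67%), where 30.1% of all genes did. This gene, Atp6v1a, measured 25.6, 22.0 and 27.1 FPKM in libraries labelled PU.1 cKO and 40.3, 48.8 and 53.8 FPKM in those labelled control (-0.90 ± 0.18, adjusted p = 0.0100). That call was lost without labelled PU.1 cKO replicate 2 (adjusted p = 0.0571). The 8 V1 genes had a median of -0.31 and the 5 V0 genes tested of -0.32, among them Atp6v0c at -1.21 (-2.25 to -0.16), with 51.9, 25.6 and 12.4 FPKM in libraries labelled PU.1 cKO and 62.2, 56.2 and 63.5 FPKM in those labelled control. Atp6ap1 and Atp6ap2 were at 0.29 and 0.08. The genes under the minimum, Acp5 and Atp6v0d2, averaged 0.250 ± 0.171 and 0.129 ± 0.177 FPKM in libraries labelled PU.1 cKO and 0.717 ± 0.265 and 0.188 ± 0.243 FPKM in those labelled control (SD, n = 3).

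**Figure D5:**
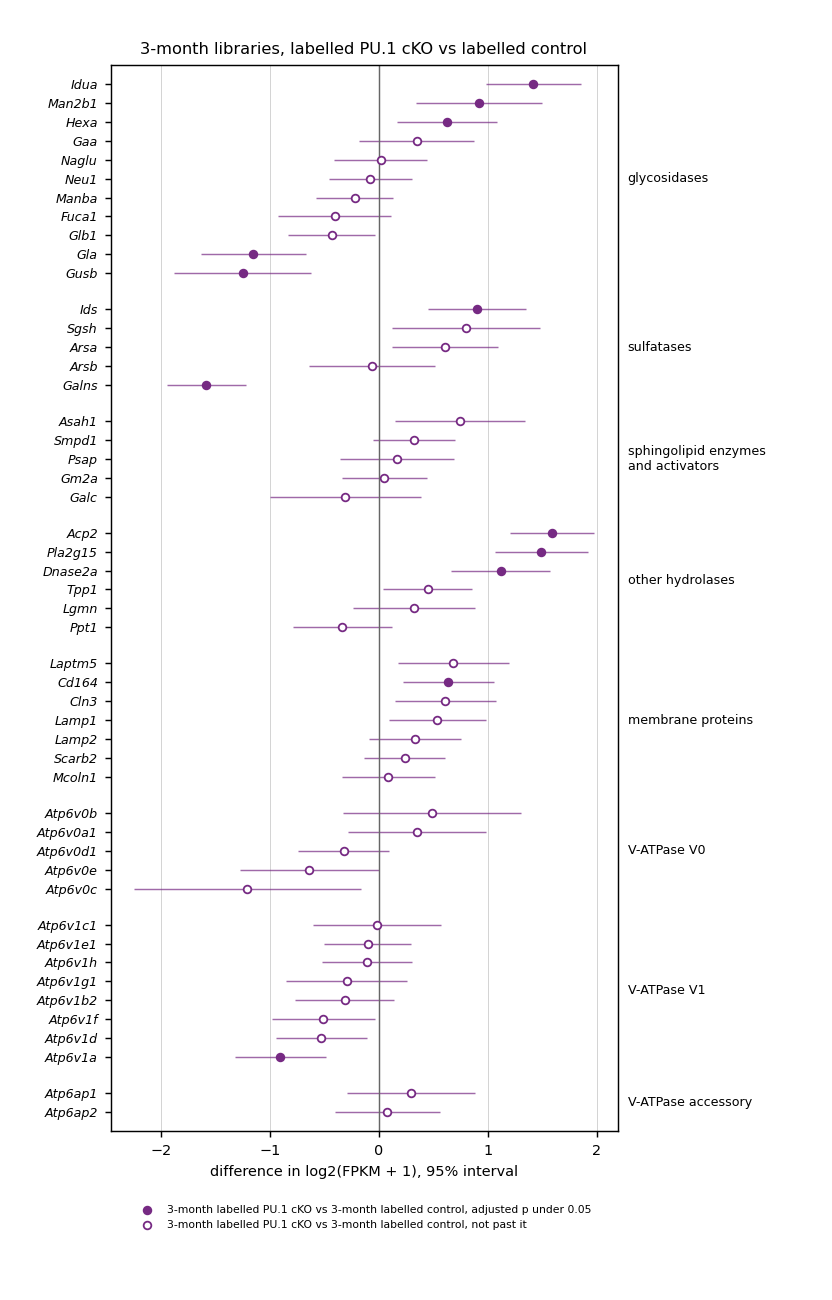
Difference in log2(FPKM + 1) between the 3-month libraries labelled PU.1 cKO and those labelled control, with its 95% interval, for the 49 lysosomal genes tested, by role class; filled symbols passed an adjusted p of 0.05. There are 8 filled symbols right of 0 and 4 left of it, and under the other reading of the labels all signs would turn.

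Of the further lysosomal genes 15 of 76 tested were higher and 5 lower in the libraries labelled PU.1 cKO, a share called of 26.3%, beside 30.1% of all genes. Among them Tcirg1 was higher by 1.28 ± 0.24 and the nucleoside transporter gene Slc29a3 by 1.59 ± 0.22, and Gnptab was lower, at -1.27 ± 0.36. Tfe3 was higher as well, by 1.10 ± 0.16. The counts of the 49 genes moved when a library was left out. Without labelled control replicate 2, which had the lowest Spi1 level, 13 genes were higher and 8 lower. The counts over all genes grew too, to 2010 higher and 2721 lower, beside 1344 and 1925 with every library. Without labelled PU.1 cKO replicate 1, 2 or 3, the higher genes numbered 5, 4 and 4 and the lower ones 5, 2 and 3. Over all genes, 763, 580 and 652 were then higher and 1314, 960 and 1097 lower.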

How the data were processed

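The authors deposited 2 tables of FPKM values, 1 for the 3-month and 1 for the 4.5-month libraries, made by low-input full-length cDNA and tagmentation kits that do not mark strand, per the labels' protocols. TopHat, Bowtie, Cufflinks 2.0.0 and mm9 are named in the submitters' processing notes. Reads of overlapping genes on opposite strands therefore cannot be told apart. Each table was analysed on its own as log2(FPKM + 1), for genes averaging 1 FPKM or more (10845 at 3 months, 10894 at 4.5 months), with limma 3.58.1 in R 4.3.3 with a mean-variance trend. The test was two-sided with Benjamini-Hochberg adjustment over all genes tested and a threshold of 0.05. The 9 libraries of the 4.5-month table shared 1 estimate of the spread. Differences are log2 values ± the standard error of the model, and levels mean ± SD over 3 libraries. A fold on this scale understates changes of low genes. The fit was tested on simulated data.

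FPKM does not hold counts, so count models were not used and depth is unknown. Estimated from the steps of low values, 1 read was worth 1.00 to 1.13 times its value in CK replicate 1 in the 4.5-month libraries other than CK-p25 replicate 3, where it could not be settled, and 0.829 to 1.09 times its value in labelled control replicate 1 at 3 months.

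Columns were matched to samples by the description in the labels, and the 3-month groups follow the titles. The 51 genes, their role classes and the further lists were chosen with earlier results of these data known. Each gene is accounted for in its class, each that passed is given with its difference, and values in every library are given for up to 4 genes per class with the largest differences. Alternatives were another pseudocount, other minimum levels, median centring, quantile normalization, no variance trend, the replicate number as a block, only the compared libraries, leaving out each library and, chosen after seeing the data, equal library totals.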

Additional observations from a re-analysis of the deposited data

Results flagged for a closer look

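For 5 of the 51 genes every library labelled PU.1 cKO lay above every library labelled control at 3 months, while every CK-p25 PU.1 cKO library lay below every CK-p25 library at 4.5 months. The log2 differences at 3 months and at 4.5 months were 0.62 and -0.18 for Hexa, 0.53 and -0.11 for Lamp1, 0.45 and -0.16 for Tpp1, 0.61 and -0.25 for Cln3, and 0.23 and -0.23 for Scarb2. Of these 10 differences, that of Hexa at 3 months passed the threshold. The difference between the ages was not tested. A further 2 genes, Glb1 and Gusb, were lower without overlap in both. Over all genes, 48.8% did not overlap at 3 months and 9.38% between CK-p25 PU.1 cKO and CK-p25, in either direction. The share of all genes without overlap in both was not computed, so these counts are not read as above the background. Under the other reading of the 3-month labels the 5 genes would lie on the same side at both ages and these 2 on opposite sides.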

How the results depend on the processing

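With 3 libraries a group and unknown depth, small differences were not resolved. In the comparison of CK-p25 PU.1 cKO with CK-p25, 0 genes of the set passed under every alternative run. Of the genes called as deposited, 30 of 40 in CK-p25 and 25 of 35 in CK-p25 PU.1 cKO, both against CK, and 6 of 12 at 3 months kept their call under all alternatives. In CK-p25 PU.1 cKO against CK, quantile normalization gave 8 lower genes and turned Lamp2 (-0.025) and Man2b1 (-0.077). With equal library totals, which moved the median of all genes by -0.30 in CK-p25 and -0.25 in CK-p25 PU.1 cKO, 28 genes were higher and 8 lower in CK-p25 (median 0.35, against -0.30 over all genes) and 23 higher and 8 lower in CK-p25 PU.1 cKO (0.21, against -0.25). At 3 months higher genes numbered 5 without a minimum level, 13 after median centring and 16 after quantile normalization, and lower genes 7 with equal library totals. Leaving out a library gave 4 to 13 higher and 2 to 8 lower at 3 months, 32 to 36 and 3 to 4 in CK-p25 against CK, and 27 to 33 and 4 to 6 in CK-p25 PU.1 cKO against CK. The counts over all genes moved as well. They were 580 to 2010 higher and 960 to 2721 lower at 3 months. Against CK they were 1373 to 2360 and 902 to 2162 in CK-p25, and 1453 to 2650 and 908 to 2398 in CK-p25 PU.1 cKO. Where 1 group then held 2 libraries, the fit shared the spread. The cause of these shifts was not tested.

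Deviations of same-numbered libraries from their group means correlated at -0.05 to 0.17 at 3 months and at -0.02 to 0.13 at 4.5 months. For libraries of different numbers the correlations were -0.26 to 0.12 and -0.22 to 0.15. These ranges overlapped, and whether replicate numbers pair the libraries was not tested. With the replicate number as a block 31 genes were higher and 6 lower in CK-p25 PU.1 cKO than in CK, 36 higher and 4 lower in CK-p25 than in CK, 0 and 0 between CK-p25 PU.1 cKO and CK-p25, and 11 and 5 at 3 months.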
